A study of Mus musculus with 8 samples.

Results

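The collagen genes of the mouse were followed in incisor dental epithelium with and without Bmi1. Members were all protein-coding genes on the array whose symbol has the form Col, a type number, the letter a and a chain number. Col17a1, whose product is a transmembrane collagen of epithelial cells, was left out and counted among the dental epithelium markers. The choice gave 38 genes with 65 probes, of 17178 genes with a symbol. By the type of assembly their chains form, 11 are fibrillar collagens, 8 are basement membrane collagens and 19 are other collagens. The reference gene table lists 43 such genes, and Col6a3, Col12a1, Col20a1, Col6a5 and Col22a1, for which no probe was matched, were not analysed here.

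The study compared incisor dental epithelia homozygous null for Bmi1 (labelled Bmi1-/-, called Bmi1 null, 4 samples) with wild-type dental epithelia (WT, 4 samples), on 1 single-colour array each. Both groups had a mixed genetic background. Per the labels' protocols, the epithelium of whole incisors was parted mechanically from the mesenchyme after accumax, an enzyme mix that loosens tissue. The labels do not give age, sex or whether samples came from separate animals, so p-values measure only the spread between these samples, which may be technical. Bmi1 encodes a subunit of Polycomb repressive complex 1.

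Collagens are trimers of alpha chains with repeated glycine, proline and hydroxyproline. Fibrillar collagens form the banded fibres of bone, dentin, cartilage and loose connective tissue and are made chiefly by mesenchymal cells, while type IV collagens form the sheet on which an epithelium rests and can be made by epithelial, endothelial and mesenchymal cells. Here their levels were described together with markers of mesenchyme and of other cell types. In such bulk samples, fewer cells of a type and less RNA per cell cannot be told apart.

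Levels below are log2 of the processed signal minus the log2 of the array's 75th percentile, so that 0 marks the 75th percentile of that array, and a fold change is Bmi1 null minus WT on this log2 scale. To be tested, a gene needed a probe well above background on 4 arrays or more. Of the 38 collagen genes, 34 were tested (11 fibrillar, 7 basement membrane, 16 other), and 33 of these were well above background on all 8 arrays. The 4 that were not tested were Col10a1, Col28a1, Col4a3 and Col6a6, and Col6a6 was above background on no array. Bmi1 itself stood at -2.92, -1.22, -1.23 and -1.04 in Bmi1 null replicates 1 to 4, against 1.16, 1.27, 1.20 and 1.25 in WT replicates 1 to 4. Every Bmi1 null array lay below every WT array, in the direction of the labels (log2 fold change -2.82 ± 0.37 SE, limma adjusted p = 0.0305). This call held in 11 of 23 alternative settings, and with 1 array left out only when that array was Bmi1 null replicate 1. Bmi1 remained above background on all 4 Bmi1 null arrays, and the files do not show which part of the gene the probe reads or which part the allele lacks. Between 64.2% and 68.2% of probes were well above background in Bmi1 null arrays and between 69.6% and 74.4% in WT arrays.

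No collagen gene passed 5% FDR: 0 of 34 were called by limma, against 0.0492% of all 22347 genes tested (probes without a symbol counted as genes of their own), and the lowest adjusted p of a collagen gene was 0.761. At an unadjusted p under 0.05, Col1a1, Col1a2 and Col7a1 were higher in Bmi1 null samples and Col19a1 was lower, which is 3 and 1 of 34 beside 4.21% and 2.16% of all genes. Col19a1 was also the only 1 of the 34 whose groups did not overlap, beside 3.06% of all genes. Its probe was well above background on only 1 of the 4 Bmi1 null arrays, so its lower count and its gap rest on dim values, and nothing is read from them. Fold changes were positive for 15 collagen genes and negative for 19, while 51.4% of all genes tested were positive. The median fold change was -0.12 for fibrillar collagens, 0.30 for basement membrane collagens and -0.11 for other collagens, beside 0.01 over all genes tested. The median pooled within-group SD was 0.545 for fibrillar, 0.620 for basement membrane and 0.464 for other collagens, and 0.400 over all genes.

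**Figure D1:**
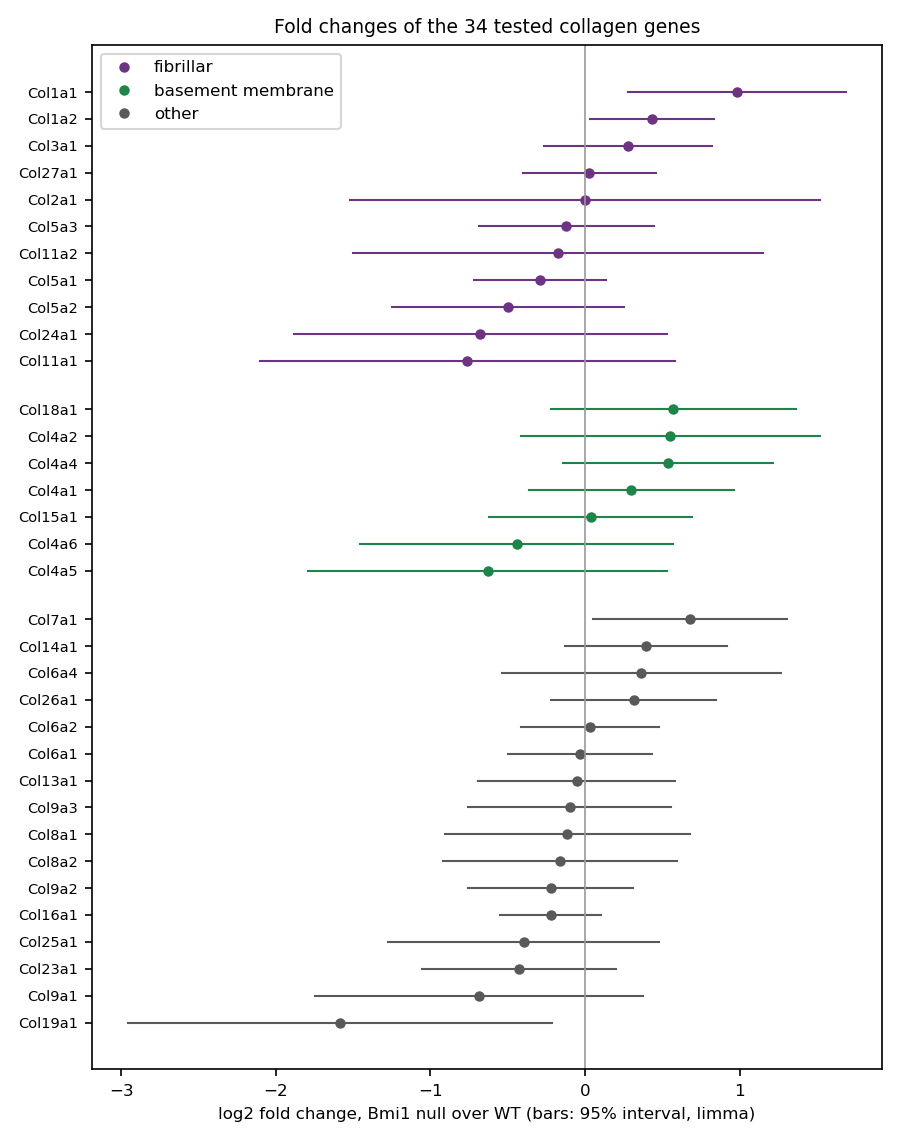
Log2 fold change of each of the 34 tested collagen genes, Bmi1 null over WT, with 95% intervals from limma, ordered by size within fibrillar, basement membrane and other collagens. Positive values are higher in Bmi1 null samples; Col1a1 (0.98) is the highest, the point of Col19a1 rests on Bmi1 null values that were mostly not well above background, and no gene passed 5% FDR.

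Col1a1 and Col1a2 encode both chains of type I collagen, the main fibre of dentin, bone and loose connective tissue. Col1a1 stood at 6.26, 7.12, 7.33 and 6.40 in Bmi1 null replicates 1 to 4, against 5.68, 6.53, 5.17 and 5.80 in WT replicates 1 to 4 (log2 levels). Only WT replicate 2 reached into the Bmi1 null range. The log2 fold change was 0.98 ± 0.32 (SE, 95% interval 0.28 to 1.69, limma adjusted p = 0.761), and it was 0.95 on slide 1 and 1.01 on slide 2, each of which held 2 arrays of each genotype. Col1a2 stood at 6.92, 7.22, 7.27 and 7.12 in Bmi1 null samples, against 6.65, 6.95, 6.28 and 6.92 in WT samples. The groups met at Bmi1 null replicate 1, which lay below WT replicate 2. Its log2 fold change was 0.43 ± 0.18 (SE, limma adjusted p = 0.770), with 0.29 on slide 1 and 0.58 on slide 2.

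Normalization between arrays changed both values. With quantile normalization the fold change of Col1a1 was 0.53 and that of Col1a2 turned to -0.19, and from the authors' deposited table the same fit gave 0.50 and -0.17. Strong probes as a class were higher in Bmi1 null arrays: of the 179 genes with a mean level above 6, where Col1a1 and Col1a2 lie, 98.3% had fold changes above 0 (median 0.57). Among the 960 genes with a mean level above 4 and up to 6, 81.6% were above 0 (median 0.18). The part of this trend in the values of Col1a1 and Col1a2 was not tested.

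The array holds 3 probes for Col1a1, and the other pair went another way. Probe A_52_P525107, the strongest, gave the values above. Probe A_51_P377094 stood at 4.26, 5.41, 4.19 and 4.32 in Bmi1 null samples, against 4.40, 2.67, 5.67 and 5.87 in WT samples, a log2 fold change of -0.10. Probe A_52_P658611 stood at -0.74, 0.87, 0.11 and -0.28 in Bmi1 null samples, against -0.02, -1.65, 0.80 and 0.91 in WT samples, a log2 fold change of -0.02. WT replicate 2 was the highest WT array on the first probe and the lowest on the other two, and WT replicate 3 was the lowest WT array on the first and among the higher ones on the others. The mean over the 3 probes gave a log2 fold change of 0.29. The files give no probe positions, so which part of the transcript each probe reads was not analysed here.

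**Figure D2:**
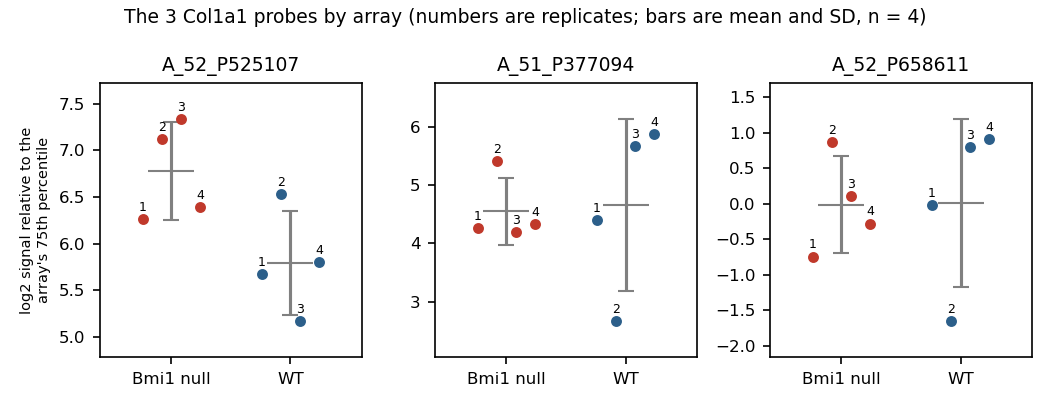
Level of the 3 Col1a1 probes on each array (log2 level, scaled to the 75th percentile of the array; numbers are replicates, bars are mean and SD, n = 4). On the left probe the Bmi1 null arrays lie between 6.26 and 7.33 and the WT arrays between 5.17 and 6.53; on the middle and right probes WT replicates 3 and 4 lie above WT replicate 2 and the group means are close together.

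Promoters of type I collagen genes carry the letters CCAAT, which the factor NF-Y is known to bind, and the Col1a2 window is shown to make that visible. It runs from 250 bases before to 50 after the start site on the plus strand (RefSeq, GRCm38.p6, chr6:4505368-4505667), and capitals mark CCAAT, read on either strand (CCAAT or ATTGG).
Col1a2: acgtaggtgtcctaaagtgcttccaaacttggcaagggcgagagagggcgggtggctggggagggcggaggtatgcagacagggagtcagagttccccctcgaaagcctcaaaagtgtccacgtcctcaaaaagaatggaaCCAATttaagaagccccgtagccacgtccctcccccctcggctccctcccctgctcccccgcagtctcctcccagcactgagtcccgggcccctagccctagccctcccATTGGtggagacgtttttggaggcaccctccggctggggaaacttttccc
The window holds the motif at 2 places. Promoter windows were found for 31 of the 38 collagen genes, 34 windows in all, and 12 of these (35.3%) held CCAAT on either strand. Over all 32851 windows of the same length the share was 37.4%.

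Col3a1 encodes type III collagen, which forms thin fibres in soft connective tissue and in the pulp. It stood at 5.25, 5.83, 6.09 and 5.75 in Bmi1 null samples, against 5.37, 6.0, 4.96 and 5.48 in WT samples. The groups overlapped (log2 fold change 0.28 ± 0.24 SE, limma adjusted p = 0.826), and quantile normalization gave -0.04. On their strongest probes, WT replicate 3 was the lowest of the 8 arrays for Col1a1, Col1a2 and Col3a1 alike. Bmi1 null replicate 3 was the highest for all of them. The other Col1a1 probes did not show this, and the second Col3a1 probe was lowest in WT replicate 2 (-3.04). WT replicate 3 was also lowest and Bmi1 null replicate 3 highest for Krt5, Krt17 and Ambn, which are not collagen genes. For Krt14 and Amelx, WT replicate 3 was lowest but other Bmi1 null arrays were highest.

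Types V and XI collagen start fibrils and limit their width. Col5a1 stood at 3.06, 3.14, 2.95 and 3.14 in Bmi1 null samples, against 3.09, 3.01, 3.71 and 3.64 in WT samples. Col5a2 stood at 3.05, 3.09, 2.90 and 3.21 in Bmi1 null samples, against 3.30, 2.53, 4.27 and 4.14 in WT samples. On these probes the Bmi1 null arrays lay close together, and WT replicates 3 and 4 stood above all other arrays. The log2 fold changes were -0.29 ± 0.19 for Col5a1 and -0.50 ± 0.34 for Col5a2 (SE, limma adjusted p = 0.799 and 0.802). The second, dimmer Col5a1 probe did not show this pattern, and its fold change was 0.17. It stood at -2.23, -2.76, -2.52 and -3.24 in Bmi1 null samples, against -2.82, -2.90, -3.11 and -2.61 in WT samples. Col5a3, the third chain of type V, stood at -0.11, -0.34, 0.39 and -0.26 in Bmi1 null samples, against -0.41, -0.24, 0.35 and 0.45 in WT samples (log2 fold change -0.12). Its groups overlapped fully.

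The same pair of WT arrays stood out for type XI collagen. Col11a1 stood at 1.74, 3.90, 3.15 and 3.90 in Bmi1 null samples, against 3.27, 2.61, 4.78 and 5.06 in WT samples. Col11a2 stood at 3.04, 4.48, 3.50 and 4.20 in Bmi1 null samples, against 3.34, 2.33, 5.01 and 5.25 in WT samples. WT replicates 3 and 4 were the highest arrays of all 8 for both genes, while WT replicate 2 was the lowest WT array for both. The log2 fold changes of -0.76 ± 0.61 for Col11a1 and -0.18 ± 0.60 for Col11a2 (SE, limma adjusted p = 0.816 and 0.954) were no larger than the spread within genotypes. Without WT replicate 2 the value for Col11a1 was -1.20, and without Bmi1 null replicate 1 it was -0.28. The dimmer Col11a1 probe had a fold change of -0.18 and the dimmer Col11a2 probe 0.02.

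The 3 remaining fibrillar genes encode type II collagen, the main fibre of cartilage, and types XXIV and XXVII, which are known from bone and cartilage. Col2a1 stood at -0.69, -0.36, 2.11 and 1.87 in Bmi1 null samples, against -0.11, 1.75, 1.40 and -0.11 in WT samples (log2 fold change 0.00). Its values split by slide and not by genotype: the 4 arrays of slide 2 (Bmi1 null replicates 3 and 4, WT replicates 2 and 3) lay between 1.40 and 2.11, and the 4 arrays of slide 1 between -0.69 and -0.11. No other collagen gene split this way, nor did any of the 8 tested cartilage markers, whereas 7.99% of all genes did. The second Col2a1 probe did not show the split, with -2.07, -2.44, -2.28 and -3.03 in Bmi1 null samples against -2.50, -2.25, -2.39 and -2.11 in WT samples. Col24a1 stood at -2.63, 0.42, -0.62 and -0.49 in Bmi1 null samples, against -0.52, -0.51, -0.03 and 0.45 in WT samples, with Bmi1 null replicate 1 well below the other 7 arrays (log2 fold change -0.68, limma adjusted p = 0.817). Without that array the value was -0.08. Col27a1 stood at 3.23, 3.91, 3.49 and 3.34 in Bmi1 null samples, against 3.38, 3.48, 3.21 and 3.80 in WT samples (log2 fold change 0.03), with overlapping groups.

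**Figure D3:**
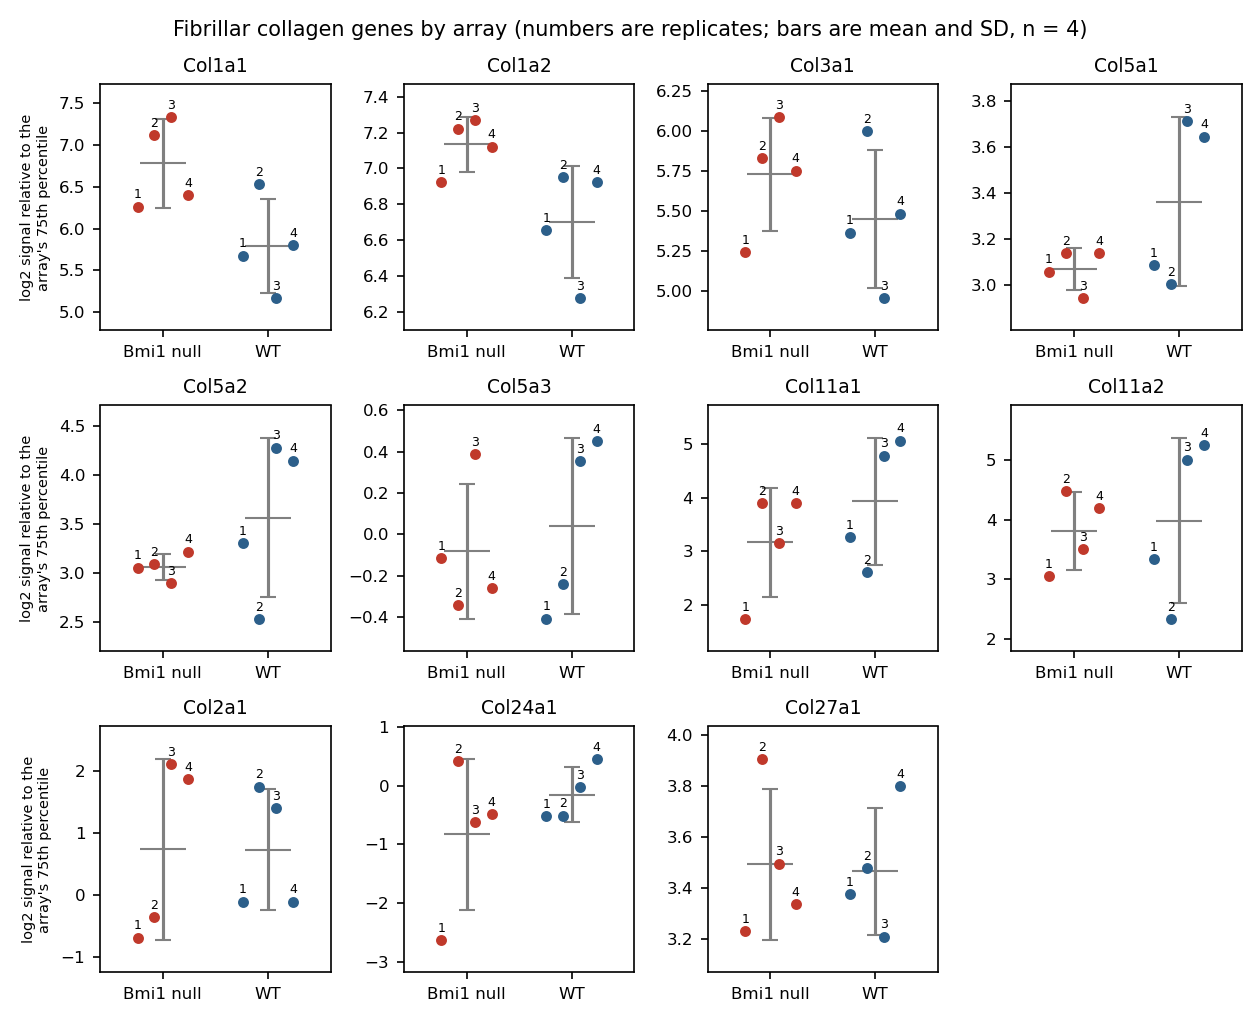
Level of each of the 11 fibrillar collagen genes on each array (log2 level, scaled to the 75th percentile of the array; red points Bmi1 null, blue points WT, numbers are replicates, bars are mean and SD, n = 4; each panel has its own axis). WT replicates 3 and 4 are the highest WT arrays for Col5a1, Col5a2, Col11a1 and Col11a2, while for Col1a1, Col1a2 and Col3a1 WT replicate 3 is the lowest. Each panel shows the strongest probe of its gene, and on the other Col1a1 probes WT replicates 3 and 4 are the highest WT arrays. On the second Col5a1 probe WT replicate 3 is the lowest WT array.

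Averaged over the 11 fibrillar genes, the log2 level was 2.65, 3.49, 3.50 and 3.47 in Bmi1 null replicates 1 to 4, against 3.0, 3.13, 3.56 and 3.72 in WT replicates 1 to 4. The lowest array was Bmi1 null replicate 1, and the other 3 Bmi1 null arrays lay within 0.1 of each other in the middle of the WT range. The difference of the group means was -0.07, and 0.14 without Bmi1 null replicate 1. It was -0.29 on slide 1 and 0.14 on slide 2. With quantile normalization it was -0.27, and from the authors' deposited table -0.26.

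In the basement membrane collagens 1 array stood out. Col4a1 and Col4a2 encode the chains of the type IV network found in nearly every basement membrane. Col4a1 stood at 3.57, 2.27, 2.89 and 2.41 in Bmi1 null samples, against 2.69, 2.19, 2.13 and 2.93 in WT samples. Col4a2 stood at 3.62, 1.65, 2.03 and 1.12 in Bmi1 null samples, against 1.65, 1.29, 1.62 and 1.65 in WT samples. Bmi1 null replicate 1 was the highest of the 8 arrays for both genes, and the other Bmi1 null arrays overlapped the WT arrays. The log2 fold changes were 0.30 ± 0.30 for Col4a1 and 0.55 ± 0.44 for Col4a2 (SE, limma adjusted p = 0.840 and 0.814), and without Bmi1 null replicate 1 they were 0.04 and 0.05. The second probe of each gene showed the same array on top, at 2.75 for Col4a1 and 2.43 for Col4a2 in Bmi1 null replicate 1, with no other array of either genotype above 1.23 for Col4a1 or 0.48 for Col4a2.

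Col4a1 and Col4a2 lie head to head on mouse chromosome 8, and their promoter windows are shown because they overlap. The Col4a1 window is on the minus strand (RefSeq, GRCm38.p6, chr8:11312777-11313076, start site 11312826), the Col4a2 window on the plus strand (chr8:11312555-11312854, start site 11312805), and capitals mark the 78 bases that both share (chr8:11312777-11312854).
Col4a1: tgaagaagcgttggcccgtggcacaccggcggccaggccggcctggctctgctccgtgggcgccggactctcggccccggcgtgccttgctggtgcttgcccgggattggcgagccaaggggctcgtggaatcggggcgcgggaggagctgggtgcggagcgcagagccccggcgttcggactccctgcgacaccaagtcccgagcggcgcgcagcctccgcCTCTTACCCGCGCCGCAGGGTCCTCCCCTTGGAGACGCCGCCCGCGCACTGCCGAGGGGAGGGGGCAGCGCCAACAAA
Col4a2: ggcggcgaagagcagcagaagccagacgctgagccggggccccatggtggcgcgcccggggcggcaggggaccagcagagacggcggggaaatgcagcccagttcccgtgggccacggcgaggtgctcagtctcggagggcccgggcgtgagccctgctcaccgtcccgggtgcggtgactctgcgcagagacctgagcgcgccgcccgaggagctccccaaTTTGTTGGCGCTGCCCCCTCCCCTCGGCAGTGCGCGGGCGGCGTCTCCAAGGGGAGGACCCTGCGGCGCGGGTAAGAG
The capitals of one are the reverse complement of the capitals of the other. The G and C content was 74.0% for Col4a1 and 73.7% for Col4a2, beside a median of 52.7% over all windows. Col4a5 and Col4a6, which also lie head to head, on chromosome X, have start sites 1343 bases apart, and their windows share no base.

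Col18a1 and Col15a1 encode collagens XVIII and XV, which carry glycosaminoglycan chains and sit in basement membrane zones. Col18a1 stood at 4.76, 3.01, 3.41 and 2.99 in Bmi1 null samples, against 2.94, 3.30, 2.64 and 3.0 in WT samples. The highest array was again Bmi1 null replicate 1, and without it the log2 fold change was 0.17 in place of 0.57 ± 0.36 (SE, limma adjusted p = 0.794). The second Col18a1 probe gave a fold change of 0.59 with the same array on top, at 3.39. Col15a1 stood at -2.50, -3.35, -3.46 and -3.57 in Bmi1 null samples, against -3.32, -3.54, -3.11 and -3.04 in WT samples (log2 fold change 0.04), once more with Bmi1 null replicate 1 highest.

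The minor type IV chains build networks of more restricted tissues, such as the kidney filter for Col4a3, Col4a4 and Col4a5. Col4a4 stood at -0.29, -0.22, 0.25 and -0.44 in Bmi1 null samples, against -1.12, 0.13, -0.65 and -1.21 in WT samples (log2 fold change 0.54 ± 0.31 SE, limma adjusted p = 0.789), and WT replicate 2 alone kept the groups from parting. Col4a5 stood at -5.16, -3.42, -3.34 and -2.35 in Bmi1 null samples, against -3.55, -2.67, -2.49 and -3.05 in WT samples (log2 fold change -0.63). Col4a6 stood at -0.97, 1.18, 0.67 and 1.26 in Bmi1 null samples, against 0.27, 1.34, 1.09 and 1.20 in WT samples (log2 fold change -0.44). For Col4a5 and the strongest Col4a6 probe, Bmi1 null replicate 1 was the lowest of the 8 arrays, and without it the fold changes were -0.10 and 0.06. With normexp background correction that of Col4a5 was 0.02. Col4a6 probe A_51_P109326 had a fold change of -0.79, with Bmi1 null replicate 1 lowest again. Col4a6 probe A_52_P447196 had 0.07, with WT replicate 1 lowest (-2.70). The median fold change of the 7 tested basement membrane collagens was 0.30 with all arrays and 0.046 without that array, and it was 0.26 on slide 1 and 0.12 on slide 2.

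**Figure D4:**
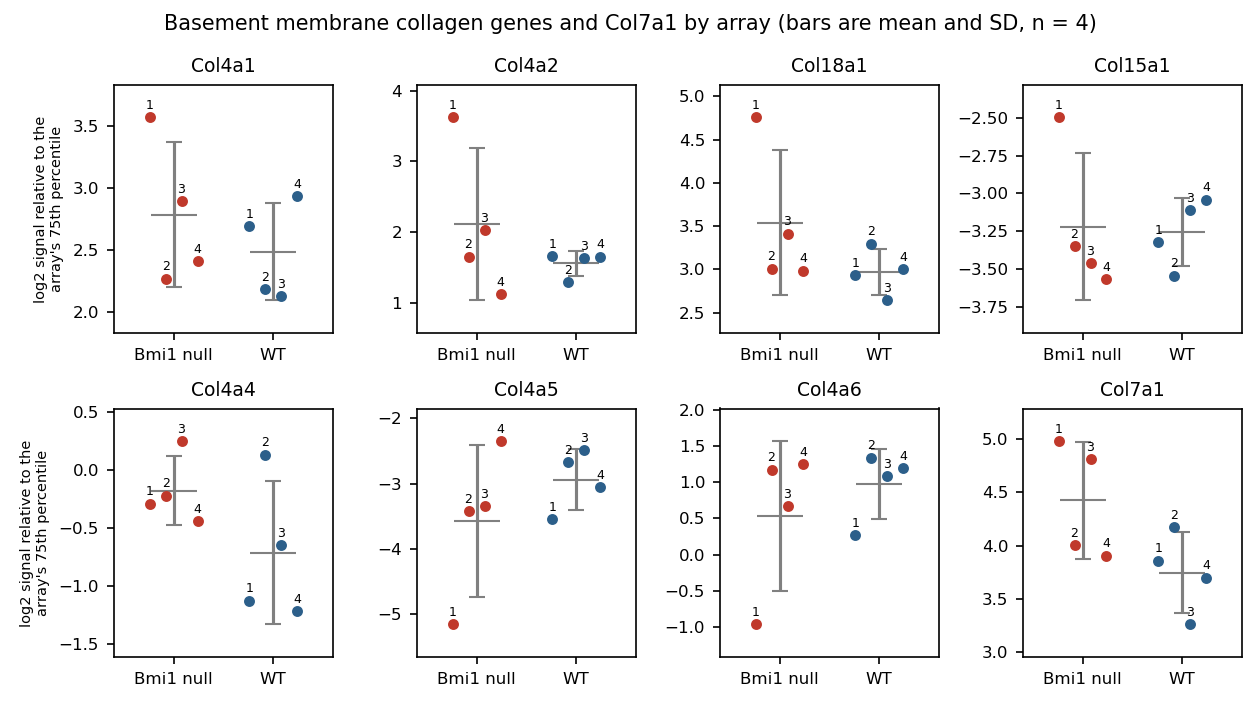
Level of the 7 tested basement membrane collagen genes and of Col7a1 on each array (log2 level, scaled to the 75th percentile of the array; red points Bmi1 null, blue points WT, numbers are replicates, bars are mean and SD, n = 4; each panel has its own axis). Bmi1 null replicate 1 is the highest array for Col4a1, Col4a2, Col18a1, Col15a1 and Col7a1 and the lowest for Col4a5 and Col4a6. Each panel shows the strongest probe of its gene.

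Among the 16 other collagens tested, 5 fold changes were positive and 11 negative. Col7a1 encodes type VII collagen, the anchoring fibril that ties an epithelial basement membrane to the tissue beneath and that keratinocytes are known to make. It stood at 4.97, 4.01, 4.81 and 3.91 in Bmi1 null samples, against 3.86, 4.17, 3.26 and 3.70 in WT samples. WT replicate 2 lay above Bmi1 null replicates 2 and 4, and the other WT arrays lay below all Bmi1 null arrays. The log2 fold change was 0.68 ± 0.28 (SE, limma adjusted p = 0.770), with 0.71 on slide 1 and 0.64 on slide 2, and quantile normalization gave 0.53.

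Several of the other collagens, Col9, Col14, Col16 and Col19 among them, sit on the surface of fibrils or join them to their surroundings. Col19a1 stood at -8.69, -5.80, -6.04 and -6.60 in Bmi1 null samples, against -5.71, -4.26, -5.38 and -5.45 in WT samples. All Bmi1 null arrays lay below all WT arrays, but the probe was well above background on only 1 Bmi1 null array and on all 4 WT arrays, so that it entered the test through WT. The log2 fold change was -1.58 ± 0.62 (SE, limma adjusted p = 0.770), -0.66 once dim values were raised to a common floor and 0.34 with normexp background correction. Col14a1 stood at 0.32, -0.43, 0.36 and 0.37 in Bmi1 null samples, against 0.04, -0.11, -0.33 and -0.56 in WT samples (log2 fold change 0.39 ± 0.24 SE). All Bmi1 null arrays but replicate 2 lay above all WT arrays. Col16a1 stood at 4.23, 4.62, 4.60 and 4.33 in Bmi1 null samples, against 4.59, 4.71, 4.69 and 4.69 in WT samples (log2 fold change -0.22 ± 0.15 SE), and its dimmer probe had a fold change of 0.54. Col9a1 stood at -3.94, -1.41, -2.56 and -2.38 in Bmi1 null samples, against -1.80, -1.35, -1.85 and -2.52 in WT samples (log2 fold change -0.69), with Bmi1 null replicate 1 far below the rest, and -0.23 without that array.

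Col23a1 and Col25a1 encode collagens that cross the cell membrane. Col23a1 stood at 0.98, 1.58, 0.91 and 1.53 in Bmi1 null samples, against 1.16, 1.38, 1.77 and 2.40 in WT samples (log2 fold change -0.43 ± 0.28 SE), with WT replicates 3 and 4 highest. Col25a1 stood at -4.63, -3.79, -3.74 and -3.98 in Bmi1 null samples, against -4.75, -3.39, -3.23 and -3.18 in WT samples (log2 fold change -0.40, and 0.17 with normexp background correction). Without WT replicate 1, all WT arrays would lie above all Bmi1 null arrays for Col25a1. Col26a1 stood at 4.99, 4.06, 4.23 and 4.45 in Bmi1 null samples, against 4.11, 3.61, 4.40 and 4.34 in WT samples (log2 fold change 0.31), with overlapping groups.

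In the remaining 8 other collagens the groups overlapped. Col6a1 and Col6a2, chains of the beaded filaments around cells, had fold changes of -0.03 and 0.03, with 95% intervals of -0.50 to 0.43 and -0.41 to 0.48. Col6a4 had 0.36, and 0.04 without Bmi1 null replicate 1. Col8a1 and Col8a2, chains of a short hexagonal network known from vessels and the cornea, had -0.11 and -0.16. Col9a2 and Col9a3, which join Col9a1 in cartilage fibrils, had -0.22 and -0.10. Col13a1, another membrane collagen, had -0.05. None of these intervals excluded 0.

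Probes of a gene did not always point 1 way. Of the 18 collagen genes with more than 1 probe that entered, 8 had probes whose fold changes differed in sign. These were Col1a1, Col2a1, Col5a1, Col5a3, Col11a2, Col24a1, Col4a6 and Col16a1. Only the 10 others, among them Col3a1, Col4a1, Col4a2, Col11a1 and Col18a1, had probes of 1 sign.

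Genes that build, cut, bind or accompany collagen were counted from lists of 5 kinds, and none of their members passed 5% FDR. Among 31 tested genes of collagen folding, modification and export, 14 fold changes were positive and 17 negative (median -0.06, and 0.02 with normexp background correction). Serpinh1, the collagen chaperone Hsp47, stood at 6.52, 6.96, 7.05 and 6.39 in Bmi1 null samples, against 5.78, 6.55, 5.48 and 5.89 in WT samples (log2 fold change 0.81 ± 0.24 SE, limma adjusted p = 0.700). It lies among the strong probes described above, and its fold change was 0.35 with quantile normalization and 0.25 from the authors' deposited table. Within each genotype its arrays stood in the same order as for the strongest Col1a1 probe, apart from Bmi1 null replicates 1 and 4. Ambn, an enamel protein gene with a mean level above 6, had the order of Serpinh1 in both genotypes. Such an order was thus not particular to collagen genes and their chaperone. P4ha3, a prolyl hydroxylase subunit, was well above background on none of the Bmi1 null arrays and on all 4 WT arrays, with measured mean levels of -7.26 and -5.62 (limma adjusted p = 0.677). The difference was -0.39 once dim values were raised to a common floor and 0.39 with normexp background correction, so no direction is given. Sec24d and Sec23a, coat proteins of the vesicles that carry procollagen out of the endoplasmic reticulum, had fold changes of -0.40 and -0.55.

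Of 11 tested genes of collagen breakdown, 6 were positive and 5 negative (median 0.05, and -0.05 with quantile normalization). Mmp13, a collagenase, stood at -0.22, 4.26, 3.68 and 3.89 in Bmi1 null samples, against 5.28, 5.16, 3.69 and 4.44 in WT samples (log2 fold change -1.74 ± 0.85 SE, limma adjusted p = 0.784). Bmi1 null replicate 1 was the lowest array, and without it the fold change was -0.70. The fold changes of Timp2, an inhibitor of such enzymes, of Mmp2, a gelatinase, and of Ctsk, the collagen-cutting protease of osteoclasts, were 0.31 (-0.02 from the authors' deposited table), -0.29 and -0.53. That of Ctsk was -0.19 without Bmi1 null replicate 1 and 0.11 on slide 2 alone.

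Of 6 tested collagen receptors, 2 were positive and 4 negative (median -0.37). The median was -0.20 without Bmi1 null replicate 1, and with normexp background correction it was -0.08 with 3 positive. Ddr2, a receptor kinase for fibrillar collagen, stood at 2.82, 3.47, 3.0 and 3.71 in Bmi1 null samples, against 3.26, 3.63, 3.87 and 4.27 in WT samples (log2 fold change -0.51, limma adjusted p = 0.789). WT replicates 3 and 4 were highest, as for Col5a2, Col11a1 and Col11a2. Itga1 and its partner Itgb1, which form a collagen-binding integrin, had fold changes of -0.62 (0.17 with normexp background correction) and -0.24 (0.02 on slide 2 alone), and Lair1, an inhibitory collagen receptor of immune cells, had -0.63.

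Laminins, agrin and perlecan share the basement membrane with type IV collagen, and of 10 such genes tested 5 were positive and 5 negative (median 0.04, -0.07 with quantile normalization and -0.06 without Bmi1 null replicate 1). Lama5, the laminin chain of epithelial basement membranes, stood at 2.89, 1.47, 2.49 and 1.85 in Bmi1 null samples, against 1.51, 1.51, 1.20 and 0.99 in WT samples (log2 fold change 0.87 ± 0.29 SE, limma adjusted p = 0.761). Only Bmi1 null replicate 2 overlapped the WT arrays. Agrn, which encodes agrin, had a fold change of 0.36 (-0.033 with quantile normalization), Hspg2, which encodes perlecan, 0.24, and Lama2, a laminin chain of muscle and nerve, -0.44.

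Proteoglycans and glycoproteins that coat collagen fibrils had 3 positive and 13 negative fold changes among 16 tested (median -0.17). Without Bmi1 null replicate 1 the count was 7 positive and the median -0.05. Postn, which encodes periostin, stood at 2.95, 3.35, 4.23 and 4.78 in Bmi1 null samples, against 4.70, 4.25, 5.07 and 5.03 in WT samples (log2 fold change -0.93 ± 0.37 SE, limma adjusted p = 0.770). Only Bmi1 null replicate 4 reached into the WT range. The value was -1.71 on slide 1 and -0.15 on slide 2. Fn1, which encodes fibronectin, and Fbn1, which encodes fibrillin-1, had fold changes of -0.62 and -0.52, and Lum, which encodes lumican, had 0.57. With quantile normalization the value of Lum was -0.019.

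Markers of cell types were set beside the collagens array by array. All 15 mesenchyme markers other than collagens were well above background on all 8 arrays, and their mean log2 level was 2.25, 3.16, 2.94 and 3.02 in Bmi1 null samples, against 2.85, 3.16, 2.81 and 3.07 in WT samples. The groups overlapped, with Bmi1 null replicate 1 lowest, as it was for the mean of the fibrillar collagens. In summed signal over the array's 75th percentile, these markers ranged from 174 to 425 in Bmi1 null samples and from 219.7 to 313 in WT samples, and the 11 fibrillar collagens ranged from 275 to 436 and from 244 to 341. Group means of both sums were higher in Bmi1 null samples (318 against 271, and 368 against 289). The mean log2 levels went the other way, differing by -0.13 and -0.07. Col1a1 and Col1a2, which weigh most in the fibrillar sum, lie among the strong probes described above. Of the 15 markers, 5 fold changes were positive and 10 negative (median -0.16), and without Bmi1 null replicate 1 the count was 10 positive and the median 0.06. Normalization moved them the other way: 2 were positive with quantile normalization and 2 from the authors' deposited table, with a median of -0.23 in each.

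Mean levels of the 11 odontoblast and bone markers were -0.47, 1.20, 1.24 and 1.11 in Bmi1 null samples, against 1.09, 0.46, 1.28 and 1.34 in WT samples. The lowest 2 arrays were Bmi1 null replicate 1 and WT replicate 2, as they were for Col11a1. Of the 14 endothelial and mural markers, 2 fold changes were positive and 12 negative (median -0.28), with mean levels from 0.63 to 1.15 in Bmi1 null samples and from 1.03 to 1.35 in WT samples. All 7 immune markers had negative fold changes (median -0.66), with mean levels from -0.28 to 0.38 in Bmi1 null samples and from 0.18 to 1.21 in WT samples. Cartilage markers had a median of -0.41, Schwann cell markers -0.01 and muscle markers -0.38, over 8, 5 and 7 tested genes. With normexp background correction the cartilage and muscle medians were 0.10 and 0.05. Without Bmi1 null replicate 1 the medians were -0.08 for cartilage, 0.17 for Schwann cell, -0.16 for muscle and -0.42 for immune markers. For endothelial and mural markers the median was then -0.23, with 5 of 14 positive.

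Dental epithelium markers, keratins and enamel proteins among them, had positive fold changes in 14 of 14 genes, none of which passed 5% FDR (median 0.58, lowest limma adjusted p = 0.311). Their mean level was 5.04, 4.36, 5.02 and 4.74 in Bmi1 null samples, against 4.28, 3.99, 3.91 and 3.84 in WT samples, and the groups did not overlap. Krt5, Krt14, Krt17, Amelx and Ambn lie among the strong probes described above, with mean levels above 6. Of all genes at that level, 98.3% had positive fold changes (median 0.57). The part of that trend in the marker values was not tested. Under quantile normalization 13 of the 14 markers were positive, with a median of 0.28. The part of these cell types in the collagen values was not tested.

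**Figure D5:**
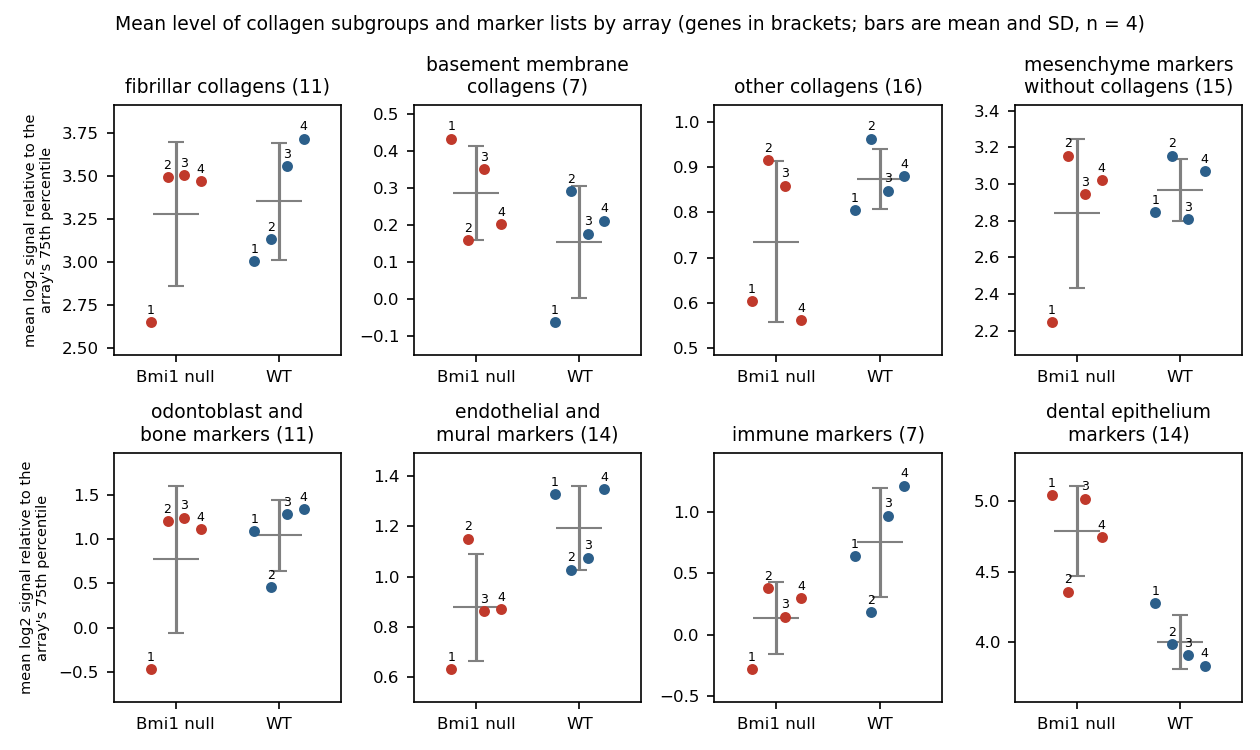
Mean log2 level per array of the 3 collagen subgroups and of 5 lists of cell type markers (log2 level, scaled to the 75th percentile of the array; number of genes in brackets, red points Bmi1 null, blue points WT, numbers are replicates, bars are mean and SD, n = 4; each panel has its own axis). Bmi1 null replicate 1 is lowest for fibrillar collagens and for mesenchyme, odontoblast and bone, endothelial and mural, and immune markers. It is highest for basement membrane collagens and dental epithelium markers.

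The array most often at an extreme was Bmi1 null replicate 1, the highest for 8 and the lowest for 10 of the 34 collagen genes. It stood apart in the same way over all genes, being the highest array for 22.8% and the lowest for 34.1% of them.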

How the data were processed

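RNA of 4 Bmi1 null and 4 WT samples was measured on single-colour Agilent arrays, 1 per sample. Per the file headers, the authors quantified the scans with Feature Extraction 10.5.1.1. The deposited processed signal is a linear intensity, which that software corrects within each array for background and for spatial trends, with no normalization between arrays. Uncorrected intensities of spots and their surroundings were also deposited. The authors' deposited value table is on a log2 scale, by its values, and its columns have nearly the same distribution; how it was made was not given in the sources used here.

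Probes were named through a RefSeq gene table (GRCm38.p6), which gave a symbol to 24844 of 41174 probes. Outlier spots were left out, and log2 signals were scaled by each array's 75th percentile. Probes needed to be well above background on 4 of 8 arrays or more, and the strongest entering probe stood for its gene, while each probe without a symbol counted as a gene of its own. Bmi1 null was compared with WT in R 4.3.3 with limma 3.58.1 (lmFit, eBayes with an intensity trend, two-sided, Benjamini-Hochberg over 22347 genes at 5% FDR). The number of arrays limits the precision. The fit was tested on simulated data.

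The members, lists and tests were chosen with earlier results of these data known. Every collagen gene was accounted for, with values on every array for tested fibrillar and basement membrane genes and for the 8 other collagens of smallest p. Of each companion list the 4 genes of smallest p were named, and Bmi1 served as a check of the labels. Samples were grouped by genotype label. WT replicate 1 has a title number that differs from that of its linked file, and the link was followed.

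Alternatives changed 1 choice each: normexp (offset 50), quantile and cyclic loess normalization, another scaling, no filter or a filter on all 8 arrays, a common floor, the mean over probes, every probe alone, array weights, no intensity trend, a block for the slide, each slide alone, each array left out, the authors' table, and 10% FDR. Their use on companion genes and marker lists was chosen after seeing the data.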

Additional observations from a re-analysis of the deposited data

Results flagged for a closer look

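In 5 of 76 groups of 4 arrays that were checked, 1 array lay far from the other 3, by a gap test that flags about 1 in 20 groups by chance. Col14a1 was low in Bmi1 null replicate 2, at -0.43. Col25a1 was low in WT replicate 1, at -4.75. Col4a2 was low in WT replicate 2, at 1.29, where the other WT arrays lay between 1.62 and 1.65. Bmi1 was low in Bmi1 null replicate 1, at -2.92, and the mean of the fibrillar collagens was low in the same array, at 2.65.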

How the results depend on the processing

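No collagen gene was called under any of the 24 alternatives, 10% FDR included, and the lowest adjusted p of a member was 0.157 (limma), for Col1a1 with no filter. The sign of the uncalled fold change differed from the reported one in at least 1 alternative for 18 of the 34 tested collagen genes and in none for 16. Of the 34, 15 were positive as reported, 11 with quantile normalization, 12 with the authors' table and 18 with normexp, which moved the median of all genes to 0.17. With no filter that median was 0.13. The median of the basement membrane collagens was 0.12 on slide 2 alone and between 0.046 and 0.47 with 1 array left out. That of the other collagens lay between -0.24 and 0.063 with 1 array left out, and that of the fibrillar collagens between -0.31 and 0.08. Of the 11 fibrillar genes, 5 were positive as reported, 1 with quantile normalization and 2 with the authors' table. The call of Bmi1 was lost, at log2 fold changes of -2.82 with a filter on all 8 arrays, with a common floor and with no intensity trend, -3.71 with the mean over probes and -3.27 on slide 1 alone. With 1 array left out its fold change lay between -3.01 and -2.38, and it was called only without Bmi1 null replicate 1. The cause was not tested. None of the 20 companion genes was called in any alternative, and 7 of them changed sign in at least 1. No paired analysis was possible because the labels give no replicate numbers that the genotypes share. Dim probes, such as that of Col19a1, have only a bound where they are not well above background.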
